A study of Homo sapiens with 36 samples.

Results

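The genes described here are 8 of the 18932 in the deposited count table: the metallothioneins MT1E, MT1F, MT1G, MT1M, MT1X and MT2A, their transcription factor MTF1 and the zinc exporter SLC30A1. They were chosen by symbol, after MT1G showed the largest rise with the combination of docosahexaenoic acid and protocatechuic acid in these same samples, so that comparison is given as a description with no test. The study measured by RNA-seq how HepG2 cells, an established human hepatoma line, responded to bioactives related to blood lipids. Cells received vehicle (Ctrl), 50 µM docosahexaenoic acid (DHA, a long-chain n-3 fatty acid, bound to bovine serum albumin), 70 µM propionate (PRO), 20 µM protocatechuic acid (PCA), DHA + PRO or DHA + PCA. Each of the 6 treatments lasted 6 h or 24 h, and each of the 12 groups has 3 samples, 36 in all. Within a group the 3 samples come from independent cultures. Samples of the same replicate number in different groups may share a culture, which the sources used here do not settle. The main tests treat all samples as independent, and a replicate block is given as an alternative. Treatment was in serum-free medium, and Ctrl received albumin and vehicle. Whether PRO and PCA wells received albumin is not given in the sources used here. A difference in albumin therefore cannot be told apart in any comparison of these wells with Ctrl or with a group given DHA. Each sample pools the RNA of 3 wells of the same experiment, so the spread between wells is not measured. The values describe a cell line and not liver tissue.

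Metallothioneins are small, cysteine-rich proteins that bind zinc, copper and cadmium and buffer the free metal in the cell. MTF1 senses zinc and binds short metal response elements in the promoters of metallothionein genes and of SLC30A1, whose product carries zinc out of the cytosol. The liver is a main site of metallothionein expression, where the genes are known to respond to metals, glucocorticoids and oxidants.

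Promoter sequences are shown because metallothionein genes moved together in these data. The RefSeq promoter table (build GRCh38.p14) held 4 of the 8 genes, MT1X, MT2A, MTF1 and SLC30A1, and MT1E, MT1F, MT1G and MT1M had no entry. The 250 bases before each start were placed in GRCh37, the build of the deposited positions, where each had 1 exact match. The core of the metal response element was searched as TGCACNC or TGCGCNC on both strands, and capitals mark each match below. The MT1X window, chr16:56716132-56716381 on the plus strand, held 4 matches at 150, 122, 78 and 53 bases before the start. The MT2A window, chr16:56642246-56642495 on the plus strand, held 7 matches, at 246, 168, 153, 139, 88, 54 and 8 bases before the RefSeq start, which lies 18 bases inside the deposited gene. The SLC30A1 window, chr1:211752504-211752753 on the minus strand, held 1 match at 49 bases before a RefSeq start 404 bases upstream of the deposited gene. The MTF1 window, chr1:38325265-38325514 on the minus strand, held 0 matches.
MT1X: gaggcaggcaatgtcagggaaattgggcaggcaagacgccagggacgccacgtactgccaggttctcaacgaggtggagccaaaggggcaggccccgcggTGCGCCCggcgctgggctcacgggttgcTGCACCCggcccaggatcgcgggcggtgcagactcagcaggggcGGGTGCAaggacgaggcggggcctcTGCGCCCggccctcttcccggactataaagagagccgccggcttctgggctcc
MT2A: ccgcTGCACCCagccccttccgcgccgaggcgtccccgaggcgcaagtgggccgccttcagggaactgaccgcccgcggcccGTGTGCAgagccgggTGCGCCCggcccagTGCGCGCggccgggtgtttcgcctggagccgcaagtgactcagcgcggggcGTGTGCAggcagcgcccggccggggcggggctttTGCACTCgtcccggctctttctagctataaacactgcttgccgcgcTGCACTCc
SLC30A1: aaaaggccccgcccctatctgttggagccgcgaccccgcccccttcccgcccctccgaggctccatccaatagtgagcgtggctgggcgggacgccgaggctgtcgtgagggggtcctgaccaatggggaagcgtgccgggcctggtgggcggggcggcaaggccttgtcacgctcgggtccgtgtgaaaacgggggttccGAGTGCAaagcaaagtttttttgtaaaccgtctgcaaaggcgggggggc

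No match in these runs overlaps another. Of 35116 promoters in the table, 24.8% held at least 1 match in the same window, 0.37% held at least 4 and 0.0313% held at least 7. A match is a description of the letters and not a bound site.

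Total counts ran from 4659744 to 42326734 per library with a median of 7034010, and the deepest library was DHA + PRO 24 h replicate 2. Levels are given as CPM (reads of a gene scaled to a common library size, after TMM normalisation), and as RPKM (CPM per kilobase of counted length) where genes are compared with each other. ALB and AFP, which hepatoma cells secrete, were at 9725 to 14177 and 3279 to 5289 RPKM over all samples. Of the markers of other liver cells PTPRC, PECAM1 and VWF had at most 8 reads in any sample, while CD68 was at 17.6 to 38.5 RPKM. Of the 8 genes, 7 passed the filter on low counts. MT1M did not: it had 21 reads over the 18 samples of 6 h and 7 over the 18 samples of 24 h, with 0 reads in 5 and 13 of them and at most 4 in any. MT1M therefore has no test, and its CPM values of 0 to 0.547 rest on too few reads for a comparison. In bulk RNA, fewer cells of a type and less RNA per cell cannot be told apart.

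The metallothionein genes lie in a cluster on chromosome 16 in hg19, from MT2A (chr16:56642478-56643409) to MT1X (chr16:56716382-56718108), with MT1G at chr16:56700647-56701977 on the minus strand. MTF1 (chr1:38275239-38325292) and SLC30A1 (chr1:211748381-211752099) lie on chromosome 1. The metallothionein transcripts are close copies, and how reads matching several genes were counted is not given in the sources used here. Among the annotated transcripts of the 6 metallothioneins with MT1A and MT1H, the share of 50-base windows found in that gene alone was 80.3% for MT1G, 93.9% for MT1F, 95.1% for MT1E, 97% for MT2A and 100% for MT1X. The longest stretch shared by MT1G and MT2A was 64 bases. The values of MT1G, and less so of MT1F, are therefore uncertain by the reads of close copies.

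Per length, the 5 metallothioneins that passed the filter were above the factor that regulates them. In Ctrl at 6 h the level was 120.3 ± 37.2 RPKM for MT2A and 115 ± 33.2 for MT1E (SD, n = 3), against 2.82 ± 0.434 for MTF1 and 0.471 ± 0.291 for MT1M. MT1X stood at 65.4 ± 7.07 RPKM, MT1G at 55.9 ± 21.2, MT1F at 34.3 ± 7.16 and SLC30A1 at 25.3 ± 2.93. MT1E and MT2A together carried most of the metallothionein reads. At 6 h MT1E made up 32.9% ± 1.93 (SD, n = 18) of the summed metallothionein CPM and MT2A 29.98% ± 2.05, while at 24 h MT1E made up 26.8% ± 2.78 and MT2A 38.2% ± 5.93. MT1X, MT1G and MT1F followed at 6 h with 15.5% ± 2.82, 13.2% ± 1.63 and 8.39% ± 1.43. The summed metallothionein CPM was 173 ± 43.8 in Ctrl at 6 h and 313 ± 47.8 in DHA at 6 h, and 64.03 ± 18.1 and 104 ± 22.4 in the same groups at 24 h (SD, n = 3).

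**Figure D1:**
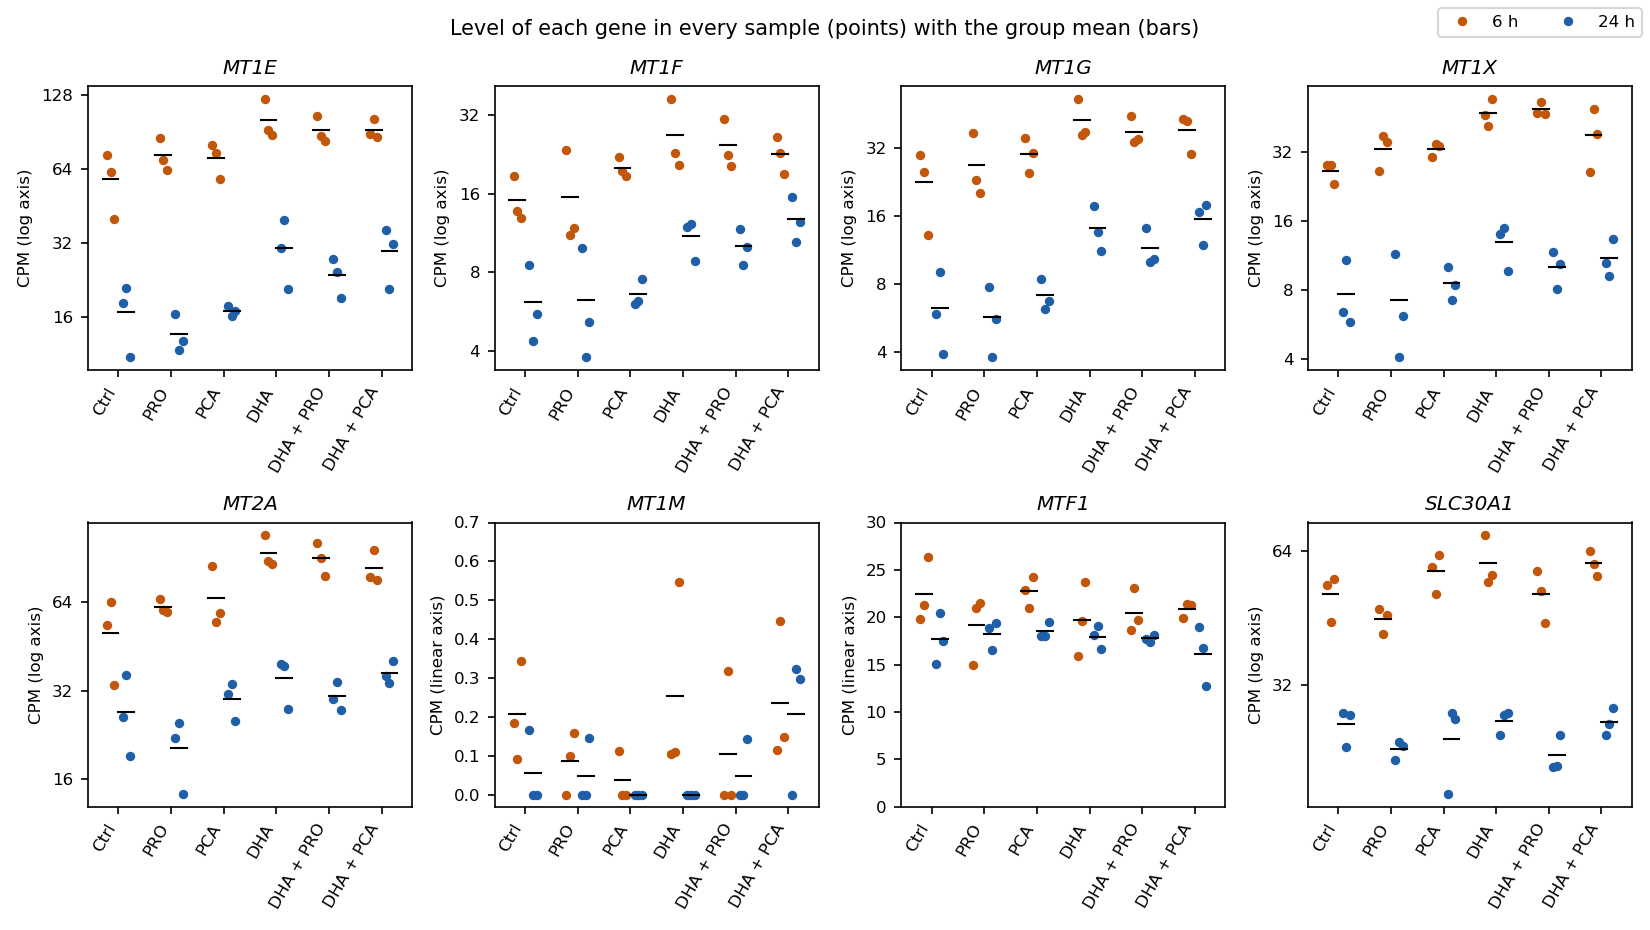
Level of the 8 genes in every sample by treatment, in CPM, with 6 h in orange and 24 h in blue; points are the 3 samples of a group and bars their mean, on log axes except for MT1M and MTF1. For MT1E, MT1G and MT1X the lowest 6 h sample lies above most or all 24 h samples, and for the 5 metallothioneins on log axes the means with DHA lie above the means without it at each time.

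MT1G, the gene that led to this choice, is described first at 24 h. Its level was 5.87, 8.997 and 3.91 CPM in the Ctrl samples, 7.72, 3.78 and 5.57 in PRO and 8.35, 6.195 and 6.74 in PCA. With DHA it was 17.6, 13.6 and 11.1 CPM, with DHA + PRO 14.2, 10.01 and 10.3, and with DHA + PCA 16.7, 11.9 and 17.8. The 9 samples with DHA all lay above the 9 samples without it, as for 0.0589% of 11893 genes, a value given beside the choice and not as support for it. The log2 fold change of DHA + PCA against Ctrl, which chose the genes, was 1.31 ± 0.27 (SE), and those of DHA and DHA + PRO against the same Ctrl samples were 1.18 ± 0.27 and 0.85 ± 0.27. In the choosing comparison MT1F was at 1.07 ± 0.28, MT1E at 0.83 ± 0.24, MT1X at 0.53 ± 0.30 and MT2A at 0.44 ± 0.20 on the log2 scale. SLC30A1 at 0.02 ± 0.14 and MTF1 at -0.14 ± 0.15 were near 0 beside their errors. Adding PCA to DHA left MT1G at 0.14 ± 0.25, also untested. Since these comparisons use samples that chose the genes, they stand as descriptions.

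Whether DHA changed these genes at 24 h was tested in samples outside that choice, DHA and DHA + PRO against PRO and PCA (6 against 6). In this comparison MT1G and MT1E rose, and 0 of the 7 genes tested fell. DHA came with albumin, so DHA and any difference in albumin from the PRO and PCA wells cannot be told apart here. PRO was on both sides and PCA among the controls only, so any effect of PCA is part of the difference. A call needed an adjusted p of at most 0.05 in the quasi-likelihood test of edgeR (Benjamini-Hochberg over all genes) and an average log2 CPM above 0. Of 11893 genes 0.504% met it. MT1G rose 1.97-fold, by 0.98 ± 0.19 on the log2 scale (edgeR adjusted p = 0.00819). MT1E, the most abundant of the MT1 genes, had 30.7, 39.9 and 20.8 CPM in DHA and 27.7, 24.4 and 19.3 in DHA + PRO, against 16.5, 11.8 and 12.9 in PRO and 17.9, 16.2 and 17.05 in PCA. MT1E rose 1.76-fold, by 0.82 ± 0.17 (edgeR adjusted p = 0.0132). For MT1E and MT1G each sample with DHA exceeded each sample without it, which held for 0.109% of genes. The call of MT1G held in each of 19 alternative analyses, at an adjusted p of at most 0.0367. MT1E lost its call without DHA 24 h replicate 2 (edgeR adjusted p = 0.0838) and without DHA + PRO 24 h replicate 2, the deepest library (0.052), and kept it when that library was thinned to the median of the rest.

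The other 3 metallothioneins were higher by smaller amounts that did not pass over all genes. MT1F had 11.9, 12.2 and 8.82 CPM in DHA and 11.7, 8.52 and 9.99 in DHA + PRO, against 9.92, 3.78 and 5.13 in PRO and 6.01, 6.195 and 7.56 in PCA. The highest PRO sample overlapped the DHA groups, and the log2 difference was 0.67 ± 0.20 (edgeR adjusted p = 0.199). Without that library, PRO 24 h replicate 1, MT1F was called at 0.93 (edgeR adjusted p = 0.00617). MT1F was also called with the replicate number as a block (edgeR adjusted p = 0.022). MT2A, the MT2 form and the most abundant of the 5 per read at this time, had 39.4, 38.9 and 27.8 CPM in DHA and 29.9, 34.3 and 27.5 in DHA + PRO, against 22.02, 24.8 and 14.2 in PRO and 31.2, 33.7 and 25.2 in PCA. These ranges overlapped, and its log2 difference was 0.42 ± 0.14 (edgeR adjusted p = 0.367). MT1X gave 0.50 ± 0.20 (edgeR adjusted p = 0.624), with 8.07 to 14.9 CPM in the DHA groups against 4.07 to 11.4. The median of the 5 metallothioneins was 0.67, where the median of all 11893 genes was 0.00. By library number, the labels hold an earlier and a later series, and MT1G was higher with DHA by 1.06 within the earlier (8 samples) and by 0.76 within the later (4 samples). MT1E was higher by 0.95 and 0.42 in those series. At 24 h the later series is replicate 3 of each group, so series and replicate number cannot be told apart there.

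MTF1 and SLC30A1 were not called. SLC30A1 had 24.7, 27.4 and 27.6 CPM in DHA and 20.9, 21.1 and 24.7 in DHA + PRO, against 21.7, 23.8 and 23.3 in PRO and 18.2, 27.7 and 26.8 in PCA. Its log2 difference of 0.04 ± 0.10 (edgeR adjusted p = 0.997) was smaller than its error, and its sign turned without PCA 24 h replicate 1 or DHA + PRO 24 h replicate 3. MTF1 ran from 16.6 to 19.5 CPM over all 12 of these samples, with a log2 difference of -0.05 ± 0.10 (edgeR adjusted p = 0.997).

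DHA was also compared on top of PRO, with fewer samples. DHA + PRO against PRO at 24 h (3 against 3) called 0.227% of 11893 genes and 0 of the 7 by edgeR, while 4 of the 7 passed an unadjusted p of 0.05, all higher, as did 1142 genes in either direction, and DESeq2 called 0 of the 7. MT1G differed by 0.96 ± 0.27 (edgeR adjusted p = 0.239) and MT1E by 0.79 ± 0.23 (edgeR adjusted p = 0.28). With the replicate number as a block MT1G passed, and without the filter on low counts both passed.

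The compounds other than DHA were compared at 24 h without the choosing samples as well. PRO against PCA at 24 h called 0% of 11893 genes by edgeR (1586 at an unadjusted p of 0.05, 19 by DESeq2) and 0 of the 7. That count turned on 1 library: 527 genes were called without PRO 24 h replicate 2, against 117 without the filter on low counts and 59 with a replicate block, and 0 of the 7 in each. MT2A was lower with PRO, at -0.56 ± 0.21 (edgeR adjusted p = 0.278), and the other 4 tested metallothioneins lay between -0.31 and -0.05. Adding PRO to DHA at 24 h also called 0% of 11893 genes by edgeR (527 at an unadjusted p of 0.05, 11 by DESeq2), and all 5 metallothioneins were lower, from -0.41 for MT1X to -0.17 for MT1F, with errors of 0.19 to 0.27. Of the 7 genes 0 passed an unadjusted p of 0.05 there, which does not show that the groups were alike.

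**Figure D2:**
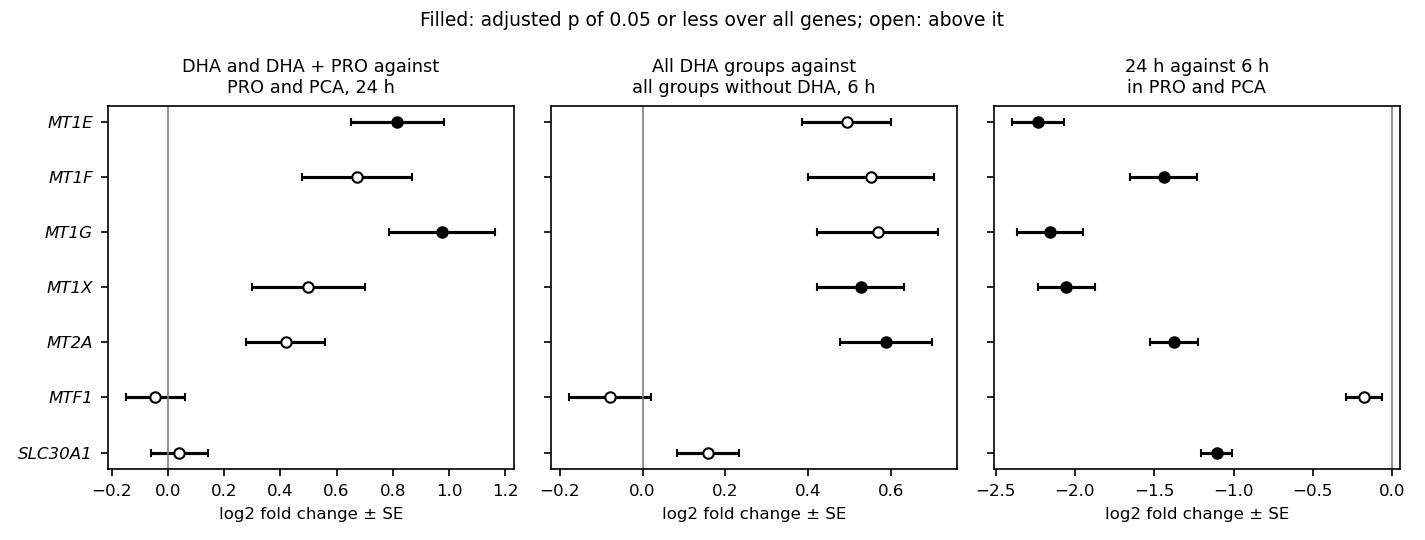
Log2 fold change (point) and standard error (bar) of the 7 genes tested, in the comparison at 24 h outside the choosing samples, in all groups with DHA against all without at 6 h, and between 24 h and 6 h in PRO and PCA; each panel has its own scale. Metallothioneins lie right of 0 with DHA at both times and left of -1 with culture time, while MTF1 lies near 0 in all 3.

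No sample of 6 h was in the comparison that chose the genes, though earlier results of these data were known at the choice. All 18 samples of 6 h were compared, the 3 groups with DHA against the 3 without (9 against 9). The albumin of the PRO and PCA wells is not given, so DHA and any difference in albumin cannot be told apart here either. MT2A and MT1X rose, 0 of the 7 fell, and 0.202% of 11872 genes were called. MT2A had 53.6, 64.2 and 33.5 CPM in Ctrl, 65.9, 60.6 and 59.2 in PRO and 85.3, 55.04 and 58.7 in PCA. With DHA it had 108, 89.01 and 86.8 CPM, with DHA + PRO 102, 90.9 and 79.1 and with DHA + PCA 78.5, 96.8 and 76.1. MT2A rose 1.504-fold, by 0.59 ± 0.11 (edgeR adjusted p = 0.0266), and among the samples without DHA PCA replicate 1 reached the range with it. MT1X had 27.98, 28.1 and 23.1 CPM in Ctrl, 26.3, 37.3 and 35.4 in PRO and 30.3, 34.6 and 33.999 in PCA. Its values were 46.5, 41.4 and 54.4 CPM with DHA, 47.4, 52.96 and 46.9 with DHA + PRO and 26.04, 49.3 and 38.04 with DHA + PCA, where replicate 1 lay among the samples without DHA. MT1X rose 1.44-fold, by 0.53 ± 0.11 (edgeR adjusted p = 0.0381).

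MT1E, MT1G and MT1F were higher without passing, and with the replicate number as a block all 5 metallothioneins were called. MT1E ran from 83.4 to 123 CPM with DHA and from 40.01 to 85.5 without it, a log2 difference of 0.49 ± 0.11 (edgeR adjusted p = 0.0695). MT1G had 29.8, 25.003 and 13.1 CPM in Ctrl, 52.8, 36.7 and 37.6 in DHA, 44.5, 33.98 and 34.9 in DHA + PRO and 43.1, 42.3 and 30.2 in DHA + PCA. With the PRO and PCA samples, at 20.3 to 37.2 CPM, its ranges overlapped, and the difference was 0.57 ± 0.15 (edgeR adjusted p = 0.261). MT1F ran from 19.1 to 36.9 CPM with DHA and from 11.1 to 23.5 without it, a difference of 0.55 ± 0.15 (edgeR adjusted p = 0.375). The zinc exporter SLC30A1 ran from 44.2 to 69.3 CPM with DHA and from 41.7 to 62.6 without it, a difference of 0.16 ± 0.08 (edgeR adjusted p = 1), and MTF1 differed by -0.08 ± 0.10 (edgeR adjusted p = 1). At an unadjusted p of 0.05, 6 of the 7 passed in edgeR, all higher, as did 342 genes in either direction. SLC30A1 was among the 6, at an unadjusted p of 0.0495 in edgeR, and MTF1 was not. The metallothioneins thus lay between 0.49 and 0.59 on the log2 scale, with a median of 0.55 against 0.00 over all genes. For 0 of the 7 genes did every sample with DHA exceed every sample without, as 0.0253% of 11837 genes did.

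In the main fit, which has no block, which metallothioneins passed at 6 h turned on single libraries. With the replicate block or the library-series block all 5 were called, and leaving out libraries was not run with a block. MT1X kept its call only when DHA + PRO replicate 1 or DHA + PCA replicate 1 was left out and lost it without each of the other 16 libraries, with edgeR adjusted p-values up to 0.11. MT2A lost its call without Ctrl replicate 1, DHA replicates 1 and 3, each PRO replicate, PCA replicates 2 and 3, DHA + PRO replicate 2 or DHA + PCA replicate 2, with edgeR adjusted p-values up to 0.0936. The direction of all 5 was kept in each of the 24 alternative analyses. With the same groups as at 24 h, a comparison added after seeing the data, 0 of the 7 passed at 6 h, with MT2A at 0.52 and an edgeR adjusted p of 0.425. Within the earlier series of library numbers (11 samples) MT2A was higher with DHA by 0.59 and within the later (7 samples) by 0.75. MT1X was higher by 0.46 and 0.62 in those series. At 6 h the later series is replicate 3 of each group with DHA + PRO replicate 2.

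Against Ctrl alone at 6 h, each DHA group compared had higher metallothionein levels, but 3 against 3 samples called few genes. DHA against Ctrl called 0.0168% of 11872 genes and 0 of the 7 by edgeR, with 5 of the 7 and 337 of all genes at an unadjusted p of 0.05 and 2 of the 7 (MT1X and MT2A) called by DESeq2. With a replicate block all 5 metallothioneins were called. MT2A differed by 0.89 ± 0.19 (edgeR adjusted p = 0.255), 1.85-fold, and the other metallothioneins by 0.78 to 0.87. DHA + PCA against the same Ctrl samples also called 0.0168% of genes and 0 of the 7 by edgeR, with 5 of the 7 and 374 of all genes at an unadjusted p of 0.05 and 0 of the 7 by DESeq2. With a replicate block MT1E was called. MT1G, the gene with the large value at 24 h, differed there by 0.74 ± 0.26 (edgeR adjusted p = 0.999). For 5 of the 7 genes, MT1E, MT1F, MT1G, MT2A and SLC30A1, each DHA + PCA sample exceeded each Ctrl sample, as did 4.83% of all genes.

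Without DHA the differences at 6 h were smaller. PRO against Ctrl called 0% of 11872 genes by edgeR (196 at an unadjusted p of 0.05, 0 by DESeq2), and the metallothioneins lay between 0.03 and 0.31. PCA against Ctrl likewise called 0% (86 at an unadjusted p of 0.05, 0 by DESeq2), with the metallothioneins between 0.27 and 0.40. These comparisons share the 3 Ctrl samples, of which replicate 3 was the lowest for MT1E, MT1F, MT1G, MT1X and MT2A, at 40.01 CPM for MT1E.

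The DHA effect itself was not shown to differ with PRO, with PCA or between the times. The difference of the DHA effect with and without PRO at 6 h was called for 0% of 11872 genes by edgeR (217 at an unadjusted p of 0.05, 0 by DESeq2). The same difference with and without PCA was called for 0% (108 at an unadjusted p of 0.05, 0 by DESeq2), and the metallothionein with the lowest p was MT1X at -0.63 ± 0.26 (edgeR adjusted p = 1). In both, which share the DHA and Ctrl samples, all 5 metallothioneins were below 0: their DHA difference was smaller beside PRO or PCA than beside vehicle, by amounts that did not pass. Between 24 h and 6 h, with the same 4 groups at each time, the difference was called for 0% of 12046 genes by edgeR (258 at an unadjusted p of 0.05, 0 by DESeq2). PCA was among the controls only in these groups, so any change in its effect is part of that difference. MT1G was at 0.48 ± 0.28 and MT1E at 0.39 ± 0.22 (edgeR adjusted p = 1 for both), while MT2A was at -0.12 ± 0.21.

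Time was compared without DHA and without the choosing samples. Time in culture, time without serum and length of exposure to PRO or PCA cannot be told apart in it, and "culture time" below stands for all of them. Between 6 h and 24 h in PRO and PCA (6 against 6), all 5 metallothioneins tested and SLC30A1 fell, where 35.5% of 12046 genes were called. MT1E ran from 58.5 to 85.5 CPM at 6 h and from 11.8 to 17.9 at 24 h, 4.696-fold lower, a log2 change of -2.23 ± 0.16 (edgeR adjusted p = 7.72e-13). MT1G, at 20.3 to 37.2 CPM at 6 h and 3.78 to 8.35 at 24 h, was 4.46-fold lower. MT1X, at 26.3 to 37.3 and 4.07 to 11.4 CPM, was 4.15-fold lower. MT1F was 2.72-fold and MT2A 2.59-fold lower, log2 changes of -1.44 ± 0.21 and -1.37 ± 0.15. SLC30A1, the zinc exporter, ran from 41.7 to 62.6 CPM at 6 h and from 18.2 to 27.7 at 24 h, 2.15-fold lower, a log2 change of -1.11 ± 0.10 (edgeR adjusted p = 3.77e-11). For these 6 genes each 24 h sample lay below each 6 h sample, as it did for 6.53% of genes. MTF1 differed by -0.18 ± 0.11 (edgeR adjusted p = 0.218) and its ranges overlapped.

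The 6 calls held in all 19 alternative analyses. Ctrl, whose 24 h samples chose the genes, is a description only: MT1E differed between its times by -1.82 ± 0.23 and MT2A by -0.91 ± 0.21. The log2 difference of SLC30A1 was -1.11 within the earlier library numbers and -1.08 within the later. The PRO and PCA samples of 24 h are also the controls of the DHA comparison at 24 h. Among 9 hepatocyte markers, beside 35.5% of all genes called, 5 rose over the same interval, TTR by 1.63 ± 0.13, APOA2 by 0.91 ± 0.09, SERPINA1 by 0.72 ± 0.08, AFP by 0.46 ± 0.06 and TF by 0.34 ± 0.06, and 2 fell, FGB with -0.74 ± 0.07 and HNF4A with -0.26 ± 0.08. The part of these shifts in the result was not tested. The summed CPM of the 9 ran from 44509 to 63603 over all samples and that of the 6 markers of other liver cells from 35.8 to 71.8.

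Over all 12 groups, the order of MT1G put 6 h before 24 h and, within each time, DHA before the rest. Its group means ran from 42.4 ± 9.05 CPM in DHA at 6 h (SD, n = 3) through 22.6 ± 8.605 in Ctrl at 6 h and 15.5 ± 3.11 in DHA + PCA at 24 h to 5.69 ± 1.98 in PRO at 24 h. Between neighbours in that order the samples overlapped, except between DHA + PRO and PCA at 24 h, where the lowest sample with DHA stood at 10.01 and the highest without at 8.35 CPM. MT1E had a further gap between the times, with Ctrl at 6 h not below 40.01 CPM and DHA at 24 h not above 39.9. SLC30A1 had that gap alone, with all 6 h groups above all 24 h groups and overlapping neighbours within each time. MTF1 had no gap, and its group means lay between 16.1 and 22.7 CPM.

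Zinc transporters were followed as 2 lists, exporters of the SLC30 family beside SLC30A1 and importers of the SLC39 family, which bring zinc into the cytosol. With DHA at 24 h, 0 of 6 exporters and 0 of 11 importers tested passed in edgeR, with medians of -0.08 and -0.04 beside 0.00 for all genes, and at an unadjusted p of 0.05 SLC30A10 alone passed. DESeq2 called 0 of either list. SLC30A10, better known as a manganese exporter, had the largest difference at 0.38 ± 0.12 (edgeR adjusted p = 0.304), then SLC30A7 at -0.17 ± 0.09, SLC39A14 at -0.15 ± 0.14 and SLC39A10 at -0.15 ± 0.08. With DHA at 6 h, 0 of 6 exporters passed in edgeR (0 at an unadjusted p of 0.05, 0 by DESeq2), and of the 11 importers SLC39A10 fell and 0 rose, where 0.202% of all genes were called. SLC39A10, a plasma membrane importer, had 22.7 to 30.9 CPM with DHA and 32.2 to 37.3 without, a log2 change of -0.38 ± 0.07 (edgeR adjusted p = 0.0273). It lost the call in 16 of 18 analyses that left out a library, at adjusted p-values up to 0.0826, with the direction kept.

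With culture time, where 35.5% of all genes were called, of the 11 importers 5 rose and 1 fell, and of the 6 exporters 2 rose and 1 fell, with medians of 0.15 and 0.09 beside -0.01 for all genes. SLC39A4, a main importer of dietary zinc in the gut, rose by 1.13 ± 0.13 over PRO and PCA together (edgeR adjusted p = 2.01e-08). SLC39A10 rose by 0.82 ± 0.08, SLC39A5 by 0.77 ± 0.11, SLC39A11 by 0.64 ± 0.10 and SLC39A13 by 0.46 ± 0.11. SLC39A9 fell, with a log2 change of -0.31 ± 0.07, and SLC30A6 fell, with -0.29 ± 0.09. SLC30A3 and SLC30A10 rose by 0.76 ± 0.22 and 0.40 ± 0.12. The calls of SLC30A3, SLC30A6 and SLC30A10 were each lost in 1 of 19 alternative analyses, and those of the 6 importers in 0.

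**Figure D3:**
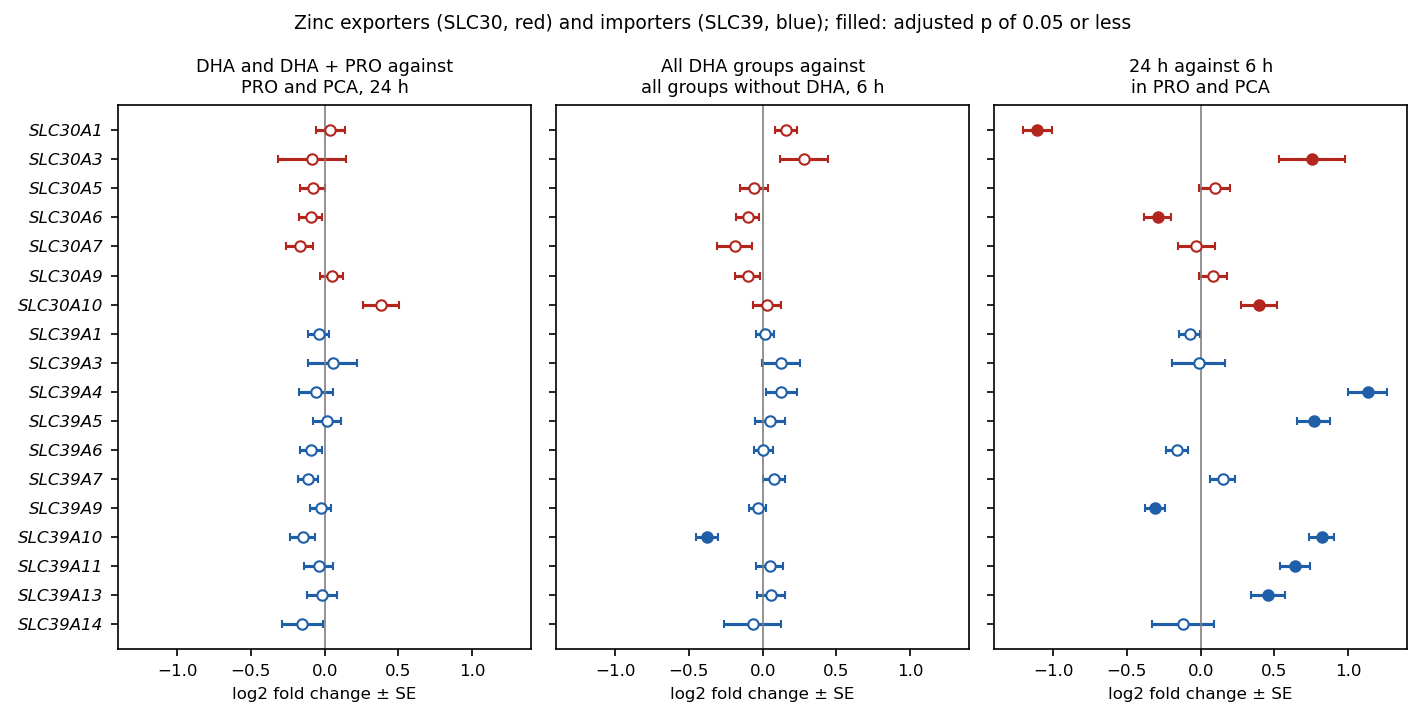
Log2 fold change (point) and standard error (bar) of the SLC30 exporters and SLC39 importers that passed the filter, for the same 3 comparisons; filled points passed an adjusted p of 0.05. With DHA the one filled point is SLC39A10 at 6 h, while with culture time SLC30A1 lies at -1.11 and SLC39A4 at 1.13.

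Genes of the metal and oxidant stress response were listed as well, since metals and oxidants are known to induce many of them beside metallothioneins. With DHA at 24 h, where 0.504% of all genes were called, 5 of 14 rose and 0 fell, with a median of 0.25. NQO1, a quinone reductase, rose by 0.36 ± 0.06 (edgeR adjusted p = 0.000886), with 607 to 737 CPM in the DHA groups against 449 to 591. SRXN1, which repairs oxidised peroxiredoxins, rose by 0.33 ± 0.06 and TXNRD1, a thioredoxin reductase, by 0.32 ± 0.06. GCLC, the catalytic subunit of the first enzyme of glutathione synthesis, rose by 0.32 ± 0.07, and OSGIN1, an oxidative stress-induced growth inhibitor, by 0.68 ± 0.14. NQO1 and SRXN1 kept the call in all 19 alternative analyses, TXNRD1 lost it in 1, OSGIN1 in 4 and GCLC in 8. SLC7A11, the cystine transporter, was at 0.53 ± 0.16 (edgeR adjusted p = 0.216) and HMOX1, the inducible heme oxygenase, at 0.24 ± 0.09 (edgeR adjusted p = 0.46), and neither passed. DHA + PRO against PRO at 24 h called NQO1 alone among the 14, at 0.39 ± 0.08 (edgeR adjusted p = 0.0368).

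At 6 h, where 0.202% of all genes were called, 1 of the 14 rose with DHA and 0 fell, with a median of 0.13, where DESeq2 called 4 (GCLM, OSGIN1, SRXN1 and TXNRD1). OSGIN1 rose by 0.63 ± 0.12 (edgeR adjusted p = 0.0266), from 24.4 to 44.4 CPM without DHA to 36.9 to 62.96 with it, and lost the call in 11 of 18 analyses that left out a library. With culture time, where 35.5% of all genes were called (2234 higher and 2040 lower), 8 of the 14 fell and 1 rose, with a median of -0.43. TXNRD1 fell, with a log2 change of -0.95 ± 0.06, GCLM with -0.95 ± 0.10, GCLC with -0.83 ± 0.07 and SRXN1 with -0.77 ± 0.08. OSGIN1 with -0.77 ± 0.16, the chaperone gene HSPH1 with -0.67 ± 0.09, NQO1 with -0.56 ± 0.09 and the ferritin light chain gene FTL with -0.29 ± 0.10 fell as well. HMOX1 rose over the same interval by 0.97 ± 0.09 (edgeR adjusted p = 5.8e-11), where the metallothioneins fell. The log2 changes of the 5 metallothioneins ran from -2.23 to -1.37.

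Of 6 further metallothionein genes in the table, MT1A alone passed the filter. It was low, at 1.17 to 2.88 CPM in PRO and PCA at 24 h, and differed with DHA at 24 h by 0.07 ± 0.26 (edgeR adjusted p = 0.997) and with culture time by 0.45 ± 0.28 (edgeR adjusted p = 0.221). Copper handling genes gave 0 of 11 called by edgeR with DHA at either time, with 2 at an unadjusted p of 0.05 at 24 h and 0 at 6 h, and 0 by DESeq2. The 2 largest differences at 24 h were SLC31A2 at -0.26 ± 0.14 and CP, the copper carrier ceruloplasmin, at -0.24 ± 0.09. With culture time, at 35.5% of all genes called, 5 of the 11 were called: 3 rose, CCS, the copper chaperone of superoxide dismutase, by 0.51 ± 0.10, CP by 0.40 ± 0.10 and ATOX1 by 0.24 ± 0.09, and 2 fell, SCO1 with -0.30 ± 0.09 and ATP7B with -0.17 ± 0.07. The calls of ATOX1 and ATP7B were each lost in 11 of 19 alternative analyses.

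Glucocorticoid-induced genes gave 0 of 7 called by edgeR with DHA at either time, with 2 at an unadjusted p of 0.05 at 24 h and 0 at 6 h, and 0 by DESeq2. TSC22D3 was at 0.67 ± 0.40 and SGK1 at -0.26 ± 0.08 with DHA at 24 h. With culture time 0 of the 7 rose and 2 fell beside the same 35.5%, TSC22D3 with -1.16 ± 0.37 and TAT, a liver enzyme of tyrosine breakdown, with -0.67 ± 0.21. Hepatocyte markers gave 0 of 9 called by edgeR with DHA at either time, with 3 at an unadjusted p of 0.05 at 24 h and 0 at 6 h, where DESeq2 called 1, TF, at 24 h. TTR was at -0.26 ± 0.08 and APOA2 at -0.21 ± 0.06 with DHA at 24 h. Of the markers of other liver cells, 0 of 3 tested at 24 h passed in edgeR, with 0 at an unadjusted p of 0.05 and 0 by DESeq2. COL1A1 and COL1A2 were higher with DHA at 24 h by 1.05 ± 0.70 and 1.63 ± 0.83 on at most 75 and 61 reads a library, and their part in the results was not tested.

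Likeness to MT1G was measured across the 36 samples. After the mean of each time was removed from log2 CPM, Pearson's r with MT1G was 0.93 for MT1E, 0.85 for MT1F, 0.78 for MT2A and 0.74 for MT1X, ranks 1 to 4 of 12045 genes. The next 5 were NQO1 at 0.73, STON2, an adaptor of endocytosis, at 0.72, ABCC3, an organic anion exporter, at 0.72, ALDH1A1, a retinaldehyde dehydrogenase, at 0.72, and SAT2, an acetyltransferase, at 0.70. By Spearman's rho MT1E, MT1F and MT2A kept ranks 1 to 3, while MT1X was at rank 7, behind NQO1, AKR1B10 and ALDH1A1, and of the 5 other genes NQO1 and ALDH1A1 stayed among the first 5. SLC30A1 had 0.21 and MTF1 -0.33. These values describe all 36 samples, which share treatments and libraries, and carry no test. The Ctrl and DHA + PCA samples of 24 h, which chose the genes, are among them.

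Among the 10 pairs of metallothioneins r ran from 0.59 to 0.93 with time means removed, and from 0.17 to 0.80 with group means removed, where only variation between samples of a group is left. In that residual variation MT1E and MT1G had the highest value, 0.80, and MT1F with MT2A or MT1X the lowest. The 11 pairs with MTF1 or SLC30A1 ran from -0.37 to 0.41 with time means removed. Correlations between close copies also hold any reads they share, whose part was not tested.

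**Figure D4:**
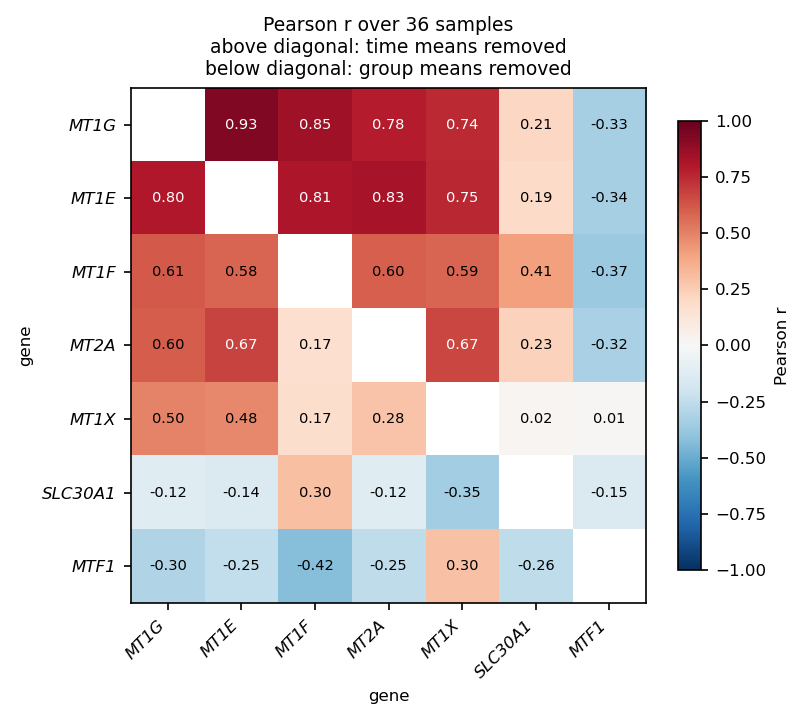
Pearson's r between the 7 genes over 36 samples, on log2 CPM, with the mean of each time removed above the diagonal and the mean of each group removed below it. The 5 metallothioneins form a block of 0.59 to 0.93 above the diagonal, and MTF1 is below 0 with 4 of them.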

How the data were processed

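RNA was measured by TruSeq RNA-seq in 36 HepG2 samples (12 groups of 3, from independent cultures within a group). The authors aligned reads to hg19 with STAR, and they deposited raw counts per RefSeq gene with the gene position and counted length. The treatment of reads matching several genes is not given in the sources used here, and no molecular identifiers are described. Reads are therefore not independent molecules, and p-values rest on the spread between samples of a group. Groups came from the sample labels.

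Counts were fitted with edgeR 4.0.16 in R 4.3.3: filterByExpr on the groups, TMM scaling, quasi-likelihood F tests over all genes kept, and Benjamini-Hochberg adjustment. A gene was called at an adjusted p of at most 0.05 with an average log2 CPM above 0. Comparisons within a time shared the spread of its 18 samples, and comparisons of both times that of all 36. Log2 CPM for correlations used a prior count of 2. Comparisons at 24 h with Ctrl or DHA + PCA samples were not tested, since these samples chose the genes.

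The 8 genes and all gene lists were chosen with earlier results of these data known. Beside the 8 genes, the text names from each list the genes called and the 2 with the largest difference with DHA at 24 h, and the 5 genes most correlated with MT1G. Alternatives were DESeq2 1.42.0 (size factors, and its Wald test), no filter on low counts, a replicate block, a block for the series of library numbers, a fit of only the groups compared, thinning of the deepest library, leaving out each library, RPKM without TMM scaling and Spearman's correlation. Python 3.11.15 with matplotlib 3.10.9 made the plots.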

Additional observations from a re-analysis of the deposited data

How the results depend on the processing

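The 6 genes called between 24 h and 6 h were called in all 19 alternatives run for that comparison. With DHA at 24 h, where MT1E and MT1G were called, leaving out single libraries gave 1 to 3 of the genes, and over all genes the 60 calls became 96 with DESeq2's Wald test, 99 without a filter on low counts and 139 with a replicate block. SLC30A1, near 0 in that comparison, ran from -0.0428 (without PCA replicate 1) to 0.0894 when single libraries were left out, and was also below 0 without DHA + PRO replicate 3.

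For DHA + PRO against PRO at 24 h the count of the genes called went from 0 to 2 without the filter. With the replicate block it was 1. Over all genes the 27 calls became 47 with DESeq2's Wald test, 75 without the filter and 99 with the replicate block. They became 43 with the library-series block, and 2 in a fit of only the groups compared. Leaving out single libraries gave 14 (without DHA + PRO replicate 2) to 136 (without PRO replicate 2). For all groups with DHA at 6 h the count of 2 became 4 with DESeq2's Wald test, 4 without the filter, 5 with the replicate block and 5 with the library-series block, and leaving out single libraries gave 0 to 2. With the groups of the 24 h comparison, added after seeing the data, it was 0. Over all genes the 24 calls became 45, 64 and 46 with DESeq2's Wald test, the replicate block and the library-series block, and 13 with the added groups. For DHA + PCA against Ctrl at 6 h the count of 0 became 1 with the replicate block and 1 with the library-series block. For DHA against Ctrl at 6 h it became 2 with DESeq2's Wald test, 1 without the filter, 5 with the replicate block and 2 with the library-series block. The cause of these moves was not tested, and in all the comparisons with DHA the genes called were metallothioneins that rose.

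The deposited column names number the pooled wells alike for each replicate number in every group, and the methods tie pooled wells to an experiment, but the sources used here do not say that the treatments of a number were run together. Residual correlations of samples with the same number averaged 0.153 at 24 h and 0.256 at 6 h, with 34 and 36 of 45 pairs over 0.1. Samples of different groups and numbers averaged -0.0757 at 24 h and -0.125 at 6 h. At each time 15 of 18 samples correlated best with their own number. Pairing by replicate number was kept as an alternative, and the main tests treat samples of the same number as independent. Of the 5 genes most like MT1G, 2 were among the first 5 by Spearman's rho. At 4659744 to 42326734 reads, MT1M had too few reads for any comparison. The number of samples, 3 a group, limits the comparisons of single groups. In the fit without a block, single libraries decided which metallothioneins passed at 6 h.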
